A study of Mus musculus with 23 samples.

Results

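The 26S proteasome subunits are described here at the transcript level in TM4 cells treated with a phthalate metabolite or with alternative plasticizers. The subunit genes were taken as every gene named Psma1 to Psma7, Psmb1 to Psmb7, Psmc1 to Psmc6 or Psmd1 to Psmd14 whose transcript was matched by an array probe. All 34 genes were found, among 20145 named genes on the array. They were represented by 42 of 55681 non-control probes, with 2 probes for 8 of the genes and 1 probe for the other 26. The probes were taken by gene name alone, although the set of genes was chosen with earlier results of these data known.

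The 26S proteasome is the ATP-dependent protease that degrades proteins tagged with ubiquitin in the cytosol and nucleus. Its 20S core is a barrel in which outer rings of alpha subunits (Psma genes) control entry and inner rings of beta subunits (Psmb genes) hold the active sites. The 19S cap comprises a ring of ATPases (Psmc genes) that unfold the substrate, further base subunits that bind ubiquitin, and a lid that removes the ubiquitin chain (Psmd genes). In mammalian cells, the genes of the complex are known to be induced together by the transcription factor NFE2L1 when proteasome activity is inhibited. Sertoli cells are the somatic nurse cells of the testis.

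TM4 is an established, immortalized mouse Sertoli cell line. The cells were treated for 48 hr with 100 μM of MEHP (the active metabolite of the phthalate DEHP), DINCH (a commercial cyclohexane dicarboxylate plasticizer), DOM (dioctyl maleate), BDB (butanediol dibenzoate) or DOS (dioctyl succinate), each in 1% DMSO, or with 1% DMSO alone. Total RNA from 4 biological replicates per group, and from 3 for DOS, was hybridized to 23 one-colour arrays on 3 slides. All of the groups carried the vehicle, so a comparison with DMSO gives the effect of a compound on cells that are also exposed to the solvent.

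Signal was the Agilent processed intensity. The array's own 75th percentile of intensity lay between 205 and 351 units over the 23 arrays. Between 43.4 and 52.2% of probes were well above background. A quality flag in the file headers rated 15 of the 23 arrays as in range. DOM replicates 3 and 4, DINCH replicates 1 and 2 and DMSO replicate 4 were not in range. Replicate 3 of MEHP, of BDB and of DOS was not either. The part of this flag in the results was not tested. All 42 subunit probes were well above background on every array. Levels below are log2 intensity minus the array's 75th percentile, so that 0 is the 75th percentile of that array, and the value of a gene is that of its brightest probe. Of 16 Sertoli cell markers, 9 were well above background on every DMSO array, among them Gata4, Sox9, Dhh and Kitl. The Sertoli markers Wt1, Amh, Fshr, Trf, Gdnf and Sox8 were above background on none of the DMSO arrays. Of the markers of other testis cells, 1 of 5 measured Leydig, 2 of 6 germ cell, 3 of 5 peritubular myoid and 2 of 4 measured macrophage markers were above background on every DMSO array. DMSO, DOM and DOS samples lay in even array positions of the slides, whereas MEHP, DINCH and BDB samples lay in odd positions. For these last compounds against DMSO, and for DOM against them, array position and treatment cannot be told apart.

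In DOM-treated cells, the subunit transcripts were lower than in DMSO cells by a modest amount. All 34 genes had a log2 change below 0, with a median of -0.21 and a range from -0.54 (Psmc5, an ATPase) to -0.06 (Psmd11, a lid subunit). The median change corresponds to a level that fell by 13.6%. Over all 12001 genes tested in the same comparison, the median log2 change was -0.03 and 52.8% of genes were below 0. None of the 34 genes passed the call rule of an adjusted p below 0.05 with a change above 1.5-fold, a rule that 20.5% of genes passed. Without the fold threshold, 14 of the 34 passed and all of these were lower. Across all genes tested, 38.7% passed this second rule, 19.8% lower and 18.9% higher. The adjusted p-values of the 14 genes lay between 0.00204 and 0.0481 by limma with Benjamini-Hochberg adjustment. For 19 of the 34 genes, the 4 DOM arrays lay below all 4 DMSO arrays, against 20.4% of all genes.

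The direction of these changes depended in part on the scaling. When the arrays were quantile normalized instead of shifted by percentile, the median over the 34 subunits was -0.09, 29 were lower than in DMSO and 5 passed the test, while the median of all genes moved from -0.03 to 0.03. Under that scaling Psma3, Psmb3, Psmb6, Psmd1 and Psmd4 had changes between 0.02 and 0.08. Of the 34 genes, 31 were among the 3000 brightest of the 12001 genes, and these 3000 genes had a median change of -0.09 with 60.9% below 0 under the percentile shift and a median of 0.02 with 46.9% below 0 under quantile normalization. The part of signal brightness in the subunits' shift was not tested.

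**Figure D1:**
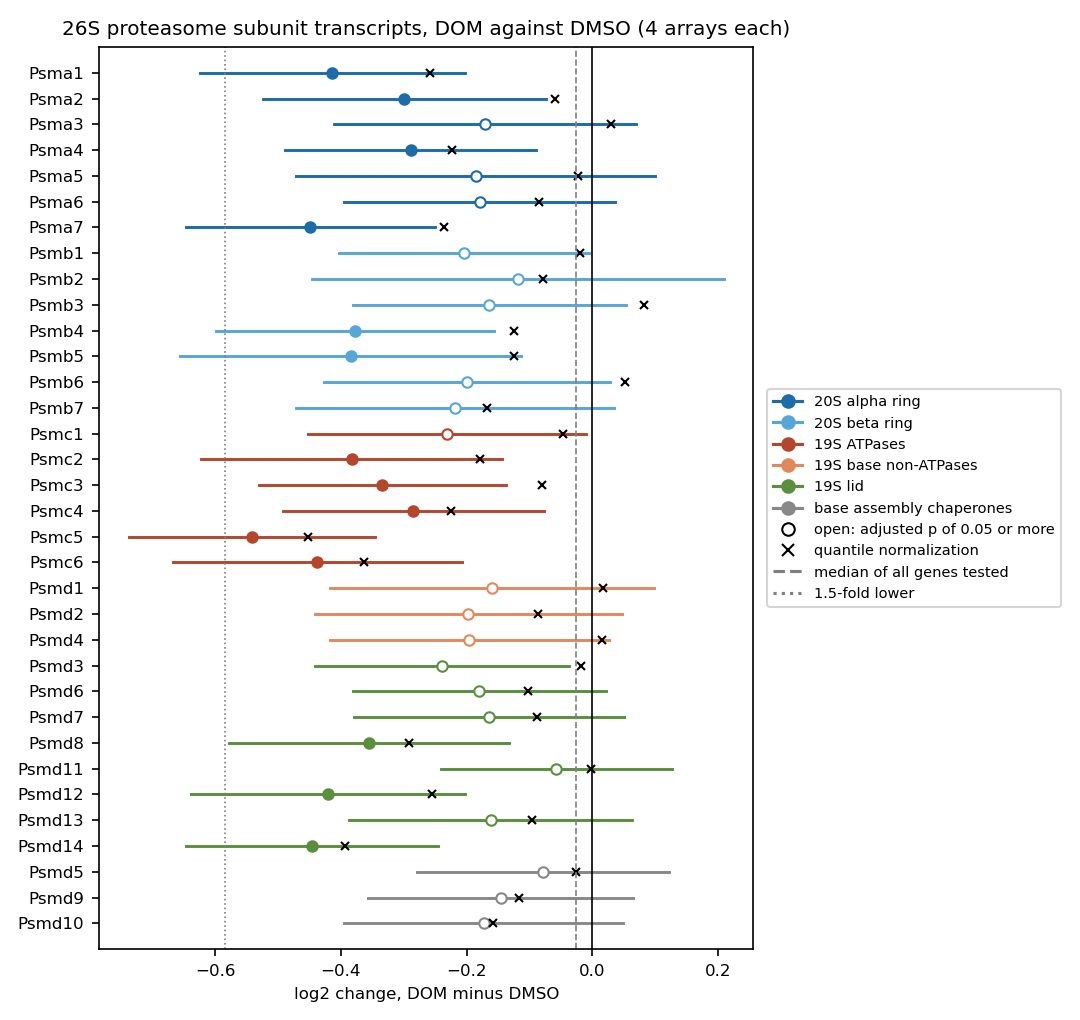
Log2 change of the 34 subunit genes, DOM minus DMSO (4 arrays each), grouped by subcomplex, with 95% confidence intervals. Filled points passed an adjusted p of 0.05 on at least 1 probe, crosses give the same change after quantile normalization, and the vertical lines mark 0, the median of all genes tested and 1.5-fold lower. All 34 points lie left of 0, between -0.54 and -0.06, whereas 5 of the crosses lie right of it.

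The 19S ATPases had the lowest median of the subcomplexes, at -0.36 on the log2 scale. These subunits form the ring that unfolds substrates and opens the gate of the core. All 6 were lower and 5 passed the test. Psmc5 read 5.55, 5.47, 5.40 and 5.48 on the DMSO arrays and 4.97, 4.82, 4.96 and 4.98 on the DOM arrays. The groups did not overlap, and the level fell by 31.3% (log2 change -0.54, SE 0.09, adjusted p = 0.00204 by limma). Psmc5 passed under all 11 other settings examined and with each of the 8 arrays left out. Psmc6 (log2 change -0.44), Psmc2 (-0.38), Psmc3 (-0.33) and Psmc4 (-0.28) also passed. Psmc1 did not (-0.23, 95% interval -0.45 to -0.01, adjusted p = 0.104 by limma). Psmc4 passed with none of the 8 arrays left out, and Psmc2 passed with 3 of the 8.

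The 20S alpha ring, whose N-termini form the gate of the core, had a median of -0.29, with all 7 genes lower and 4 passing. Psma7 read 7.14, 7.29, 7.10 and 7.05 in DMSO. The DOM arrays gave 6.71, 6.70, 6.70 and 6.69 for this gene, a range narrower than that of the DMSO arrays and wholly below it. The log2 change of Psma7 was -0.45 (SE 0.09, adjusted p = 0.00515 by limma), that is, the level fell by 26.7%. Psma1 (-0.41), Psma2 (-0.30) and Psma4 (-0.29) passed as well. Psma3, Psma5 and Psma6 had changes of -0.17, -0.19 and -0.18 and did not pass. Psma2 and Psma4 passed with 2 and 1 of the 8 arrays left out, respectively, and Psma1 and Psma7 with all 8. Under quantile normalization neither Psma1 nor Psma7 passed (adjusted p = 0.0803 and 0.0543 by limma).

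The 20S beta ring had a median of -0.20, with 2 of 7 genes passing. Its catalytic members are Psmb5 (chymotrypsin-like activity), Psmb6 (caspase-like activity) and Psmb7 (trypsin-like activity). Psmb5 read 7.87, 8.09, 7.65 and 7.78 in DMSO and 7.58, 7.57, 7.34 and 7.36 in DOM. All of its DOM arrays were below its DMSO arrays, and the log2 change was -0.38 (SE 0.12, adjusted p = 0.0382 by limma). This call was held with 2 of the 8 arrays left out. Psmb6 read 7.64, 7.90, 7.60 and 7.71 in DMSO and 7.62, 7.56, 7.43 and 7.46 in DOM. These groups overlapped through 1 DOM array, and the change of -0.20 (adjusted p = 0.163 by limma) did not pass and was 0.05 under quantile normalization. Psmb7 read 4.62, 4.52, 4.47 and 4.76 in DMSO and 4.45, 4.47, 4.14 and 4.43 in DOM, a change of -0.22 (adjusted p = 0.169 by limma). The other gene of this ring that passed was Psmb4, a structural subunit, with a change of -0.38 (adjusted p = 0.018 by limma).

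Of the 19S lid, 3 of 8 genes passed and the median was -0.21. Psmd14, the metalloprotease that cuts the ubiquitin chain from the substrate, read 4.05, 3.95, 3.84 and 4.02 in DMSO. In DOM it read 3.56, 3.50, 3.54 and 3.47, and the groups did not overlap. The log2 change was -0.45 (SE 0.09, adjusted p = 0.00548 by limma), which corresponds to a level that fell by 26.6%. Psmd12 (-0.42) and Psmd8 (-0.35), scaffold subunits of the lid, passed too, Psmd12 with all 8 and Psmd8 with 4 of the 8 arrays left out. Psmd11 had the smallest change, -0.06, with a 95% interval from -0.24 to 0.13.

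None of the 3 non-ATPase subunits of the base passed. Psmd1, the largest scaffold, Psmd2, which docks ubiquitin shuttles, and Psmd4, a ubiquitin receptor, had changes of -0.16, -0.20 and -0.20. Psmd5, Psmd9 and Psmd10 are chaperones that help the base to assemble and are not part of the finished particle. Their changes were -0.08, -0.15 and -0.17, and none passed. The other probe of Psmd10 gave -0.40 (adjusted p = 0.172 by limma). That probe alone exceeded 1.5-fold when DMSO replicate 3 was left out (-0.59, adjusted p = 0.0294 by limma), and its change then was the only one over all subunits to meet the call rule. For the 8 genes with 2 probes, both probes were lower in DOM in every case, and the largest difference between the probes of a gene was 0.22, at Psmd10.

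Nearly all of the subunits were below the DMSO mean on each of the DOM arrays. The median over the subunits of the difference from the DMSO mean was -0.20, -0.20, -0.29 and -0.27 on the DOM arrays, and 33, 34, 34 and 34 of the 34 genes were below the DMSO mean. On the other 19 arrays this median ran from -0.19 (a DINCH array) to 0.08, so that every DOM array was below every other array. The closest were DOM replicate 2 at -0.196 and DINCH replicate 3 at -0.186, where the pooled SD within groups was 0.086. These medians were taken under the percentile shift only. The corresponding median over 11207 genes detected on all arrays, bright or dim, lay between -0.05 and 0.02 on the DOM arrays. For the 3000 brightest genes, the change in DOM against DMSO had a median of -0.09 under this scaling. Within slides 1, 2 and 3, DOM minus DMSO had a median over the subunits of -0.26, -0.30 and -0.25, with 34, 33 and 31 of 34 genes lower.

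**Figure D2:**
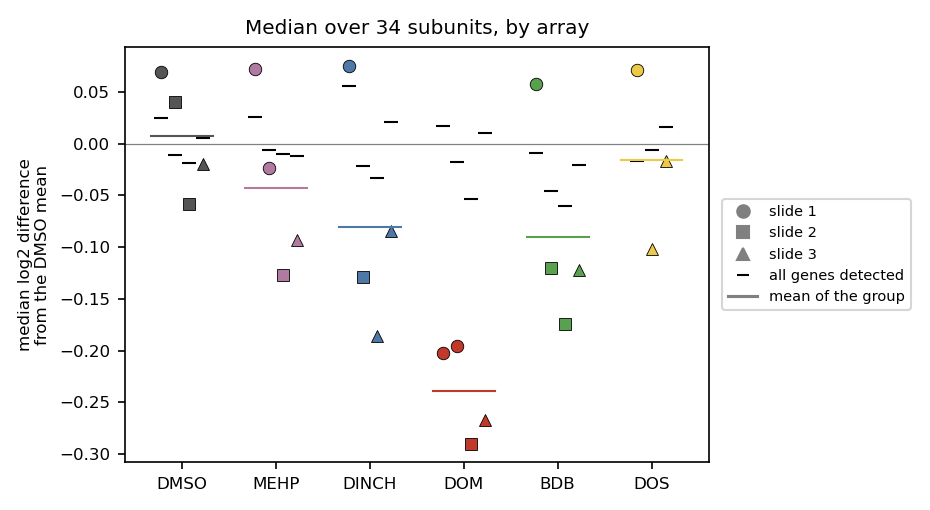
Median over the 34 subunits of the log2 difference from the DMSO mean, 1 point per array, by treatment, with the slide given by the shape of the point. Horizontal lines are group means and short dashes give the same median over all genes detected on every array. Under the percentile shift, the only scaling shown, the DOM arrays sit between -0.29 and -0.20, below all 19 other arrays. The dashes, over detected genes of any brightness, stay near 0 in every group.

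DOS and DOM are diesters of the same alcohol that differ in the diacid, which carries a carbon-carbon double bond in DOM (maleate) and is saturated in DOS (succinate). DOS also shared the even array positions with DOM. None of the 34 subunits passed either rule in DOS against DMSO, where 0% of all genes passed, and 0 of 34 had an unadjusted p below 0.05, which 6.34% of all genes had. The median change was -0.02 and 21 of 34 were lower, against 52.2% of all genes. The named rule selected Psmd1, Psmc5 and Psmc2 for DOS, with changes of -0.35, -0.16 and -0.15 (adjusted p = 0.716, 0.849 and 0.856 by limma). Psmd1 read 6.18, 6.06, 5.93 and 5.91 in DMSO and 5.86, 5.83 and 5.30 in DOS replicates 1, 3 and 4. Replicate 4 was well below the other DOS arrays, and all of them were below DMSO, as they were for no other subunit and for 3.78% of all genes. Psmc5 read 5.47, 5.12 and 5.35 in DOS, and Psmc2 read 6.90, 6.93 and 7.03. The DMSO arrays gave 7.27, 6.96, 7.04 and 7.14 for Psmc2, which overlapped with DOS.

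In the direct comparison of DOM with DOS, 33 of the 34 subunits and 51.4% of all genes were lower in DOM. The median was -0.24 for the subunits and -0.01 for all genes. Among the 2982 brightest genes, which held 31 of the subunits, the median was -0.11 and 62.9% were lower. The 4 subunits that passed the test at any fold were all lower, where 24.4% of all genes passed and 12.9% were lower, and none passed the 1.5-fold rule, which 15.2% of genes passed. These 4 were Psma7 (log2 change -0.52, 95% interval -0.74 to -0.30, adjusted p = 0.00978), Psmb5 (-0.46, -0.72 to -0.20, adjusted p = 0.0273), Psmb4 (-0.43, -0.67 to -0.19, adjusted p = 0.0252) and Psmc3 (-0.36, -0.58 to -0.13, adjusted p = 0.0398), all by limma. Psma7 passed with each of the 7 arrays left out, Psmb5 and Psmb4 with 2 of the 7 and Psmc3 with 1. With the replicate number as a block, 2 of the 4 passed, and with quantile normalization none did, the median then being -0.09 with 27 of 34 lower. For 18 of the 34 subunits the DOM arrays lay below all DOS arrays, against 20.7% of all genes. Psmc5 did not pass in this comparison (-0.38, 95% interval -0.65 to -0.11, adjusted p = 0.0552), nor did Psmd14 (-0.25, -0.59 to 0.09, adjusted p = 0.265 by limma). The DOS arrays of Psmd14 read 4.09, 3.47 and 3.74. Within slides 1 and 3, which held both compounds, the median over the subunits was -0.30 and -0.19.

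Compared directly with the remaining compounds, DOM again gave lower subunit levels. The median was -0.19 against MEHP, -0.18 against DINCH and -0.18 against BDB. In these, 33, 28 and 30 of the 34 genes were lower, where 51.6, 52.8 and 49.7% of all genes were. Among the brightest genes (2980, 2971 and 2999), which held 31 of the subunits each time, 62.5, 60.9 and 53.9% were lower. The medians of these bright genes were -0.10, -0.11 and -0.05. Against MEHP 11 subunits passed at any fold, all lower, where 41.9% of genes passed and 21.2% were lower. Against DINCH 5 passed, all lower, where 39.8% of genes passed and 20.2% were lower. Against BDB 5 passed, all lower, where 51.4% of genes passed and 23.4% were lower. Against DINCH and BDB the share of subunits that passed (14.7%) was thus below that of all genes lower. The DOM arrays lay below all arrays of the other compound for 19, 13 and 16 subunits, against 21.5, 20 and 21.8% of all genes. None passed the 1.5-fold rule in these comparisons, which 19.5, 23.3 and 27.5% of genes passed. Psma7 and Psmb4 passed against each of DMSO, DOS, MEHP, DINCH and BDB. These comparisons share the same 4 DOM arrays. With quantile normalization Psma7 passed only against MEHP (-0.22, adjusted p = 0.0417) and Psmb4 against none (adjusted p from 0.342 to 0.914 by limma). Under that scaling the medians over the subunits against MEHP, DINCH and BDB were -0.10, -0.01 and -0.06, with 23, 19 and 24 of the 34 genes lower, Psmc2 was higher in DOM than in DINCH (0.28, adjusted p = 0.0371 by limma) and Psmd4 was higher in DOM than in BDB (0.29, adjusted p = 0.0251 by limma).

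In DINCH-treated cells, 3 of the 34 subunits (8.82%) passed the test at any fold, all of them lower. Across all genes tested, 14.9% passed and 7.42% were lower, so the subunits' share was near that of all genes lower. The 3 that passed were ATPases of the 19S cap. No subunit passed the 1.5-fold rule, which 8.26% of genes passed. Psmc5 read 4.97, 4.91, 5.01 and 5.03 on the DINCH arrays, all below the DMSO values given above, and its level fell by 29.1% (log2 change -0.50, SE 0.09, adjusted p = 0.00992 by limma). Psmc4 read 4.70, 4.75, 4.61 and 4.75 in DMSO and 4.38, 4.18, 4.22 and 4.28 in DINCH, a change of -0.44 (SE 0.09, adjusted p = 0.0192 by limma). These groups did not overlap. Psmc2 read 6.74, 6.55, 6.57 and 6.72 in DINCH and was again wholly below DMSO, with a change of -0.46 (SE 0.10, adjusted p = 0.0255 by limma). The other probe of Psmc2 gave -0.40. The calls of Psmc4 and Psmc2 were lost with 2 and 6 of the 8 arrays left out, respectively, whereas that of Psmc5 was held with each array left out.

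Over all 34 subunits, the median change in DINCH was -0.09, with 25 lower and 9 higher, whereas 50.1% of all genes were lower. Within slides 1, 2 and 3, DINCH minus DMSO had a median over the subunits of 0.003, -0.11 and -0.09. On these slides 17, 27 and 27 of the 34 were lower. The DINCH arrays lay below all DMSO arrays for 6 subunits, against 12.4% of all genes. These were Psmc2, Psmc4, Psmc5, Psma6, Psmd3 and Psmd6. Psmd6, a lid subunit, read 4.24, 3.95, 4.01 and 4.03 in DINCH and from 4.30 to 4.50 in DMSO. Its change of -0.33 did not pass. It passed under 6 of the 11 other settings examined and with 1 of the 8 arrays left out. The remaining ATPases Psmc1, Psmc3 and Psmc6 had changes of -0.05, -0.10 and -0.12. The catalytic subunits differed in sign, with -0.08 for Psmb5, 0.16 for Psmb6 and 0.13 for Psmb7, and none passed (adjusted p = 0.722, 0.489 and 0.580 by limma). Psmb5 read 7.93, 7.77, 7.67 and 7.70 in DINCH. Psmb6 read 8.17, 7.85, 7.69 and 7.78, and Psmb7 read 4.93, 4.54, 4.55 and 4.84. In each case replicate 1 was the highest of the group and the values overlapped with DMSO. Psmd14 read 4.02, 3.76, 3.55 and 3.92 in DINCH, a change of -0.15 (adjusted p = 0.484 by limma). The probes of Psmd10 disagreed in direction here, with 0.23 for the brighter and -0.38 for the other, and neither passed.

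In the comparison of DINCH with BDB, which shared the odd array positions, Psmc5 (log2 change -0.39, 95% interval -0.58 to -0.19, adjusted p = 0.0176) and Psmc4 (-0.37, -0.58 to -0.16, adjusted p = 0.0292 by limma) were lower in DINCH. Psmc2 had a change of -0.28 (95% interval -0.50 to -0.06, adjusted p = 0.0903 by limma). These were the 2 of 34 subunits that passed, where 20.3% of genes passed and 8.65% were lower, and none passed the 1.5-fold rule (9.89% of genes). In all, 14 subunits were lower in DINCH than in BDB, against 45.5% of all genes, and 3 did not overlap on the lower side (11.3%). Between DOM and DINCH the difference was -0.05 for Psmc5 (95% interval -0.26 to 0.17) and 0.15 for Psmc4 (-0.08 to 0.39), and neither passed.

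**Figure D3:**
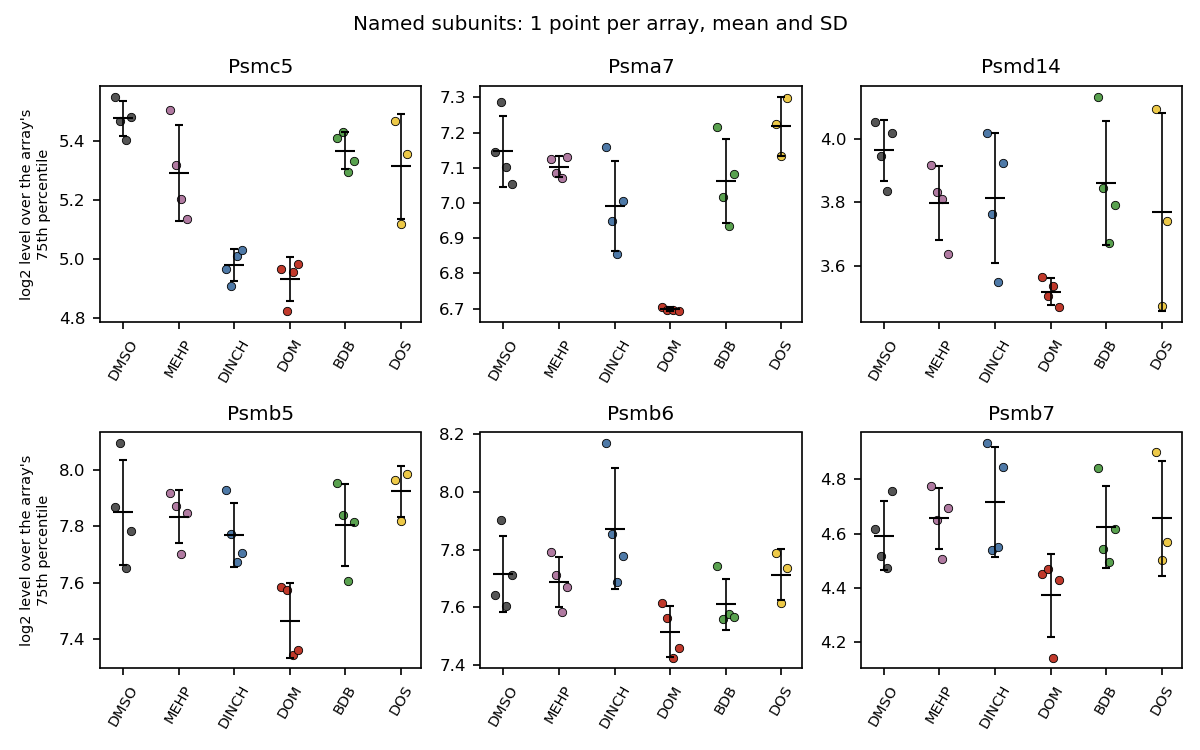
Log2 level over the array's 75th percentile of 6 named subunits, 1 point per array, with group means and SD, by treatment (4 arrays each, 3 for DOS). For Psmc5 the DINCH and DOM arrays both lie below all DMSO arrays, whereas for Psma7, Psmb5 and Psmd14 the DOM arrays lie below DMSO and the other groups overlap with it.

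In MEHP-treated cells no subunit passed either rule, while 1.68% of genes passed with and 3.01% without the fold threshold. Lower levels alone were found for 1.02% of genes at any fold. Only Psmc2 had an unadjusted p below 0.05, which 18.9% of genes had. The median change was -0.04, with 24 of 34 lower, against 52.9% of all genes. The MEHP arrays lay below all DMSO arrays for 0 of the 34, against 6.61% of genes. The subunits with the smallest adjusted p were Psmc2 (-0.22, 95% interval -0.42 to -0.02, adjusted p = 0.262), Psmd6, a lid subunit (-0.18, adjusted p = 0.368), and Psmc6 (-0.18, adjusted p = 0.386 by limma). Psmc2 read 6.97, 6.84, 6.85 and 6.88 in MEHP, against 6.96 to 7.27 in DMSO. Psmd6 read 4.39, 4.15, 4.19 and 4.10 in MEHP and 4.50, 4.30, 4.39 and 4.37 in DMSO. Psmc6 read 4.31, 4.25, 4.27 and 4.19 in MEHP and 4.61, 4.37, 4.26 and 4.49 in DMSO. All of these overlapped between the groups. The catalytic subunits Psmb5, Psmb6 and Psmb7 had changes of -0.02, -0.03 and 0.06, and Psmd14 of -0.17. Psmb5 read 7.92, 7.87, 7.70 and 7.85, Psmb6 read 7.79, 7.71, 7.58 and 7.67, and Psmb7 read 4.78, 4.65, 4.51 and 4.69 in MEHP. The MEHP arrays of Psmd14 gave 3.92, 3.83, 3.81 and 3.64. For all 34 subunits, the 95% interval of the change in MEHP lay within 1.5-fold of no change.

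BDB gave a similar picture, with no subunit and 0% of all genes passing either rule. For 4 of the 34 subunits the unadjusted p was below 0.05, against 16.3% of genes. The median change was -0.09 and 28 of 34 were lower, against 57.2% of all genes. Among the 2991 brightest genes, which held 31 of the subunits, 64.2% were lower, with a median of -0.05. Within slides 1, 2 and 3, BDB minus DMSO had a median over the subunits of 0.007, -0.14 and -0.11. On these slides 17, 31 and 26 of the 34 were lower. The subunits with the smallest adjusted p were Psmd4 (-0.31, adjusted p = 0.210), Psmd6 (-0.28, adjusted p = 0.216) and Psma1 (-0.22, adjusted p = 0.302 by limma). Psmd4 read 6.78, 6.41, 6.50 and 6.45 in BDB and 6.89, 6.88, 6.73 and 6.86 in DMSO. The BDB arrays of Psmd6 gave 4.26, 3.99, 4.17 and 4.02, and those of Psma1 gave 6.00, 5.72, 5.76 and 5.87, where DMSO gave 6.14, 6.00, 6.06 and 6.05. Psmd6 and Psma1 did not overlap with DMSO, a pattern found lower in 8.66% of all genes. The catalytic subunits were close to DMSO. Psmb5 read 7.95, 7.84, 7.60 and 7.81 (change -0.05), Psmb6 read 7.74, 7.56, 7.58 and 7.57 (-0.10), and Psmb7 read 4.84, 4.54, 4.50 and 4.62 (0.03). Psmd14 read 4.13, 3.84, 3.67 and 3.79 in BDB, a change of -0.10. All 34 intervals lay within 1.5-fold of no change in BDB. In MEHP against BDB, the remaining pair compared of 6 pairs of compounds, no subunit passed, where 2.59% of genes passed with and 7.45% without the fold threshold (2.46% lower). An unadjusted p below 0.05 was found for 2 of 34 subunits and 27.1% of genes. In MEHP 9 of 34 subunits were lower than in BDB, against 44.5% of genes, and 0 did not overlap on the lower side (6.31%).

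In DOS, Psmb5 read 7.96, 7.82 and 7.99, Psmb6 read 7.79, 7.61 and 7.74, and Psmb7 read 4.90, 4.50 and 4.57. The changes from DMSO were 0.07, -0.0029 and 0.07, and none passed (adjusted p = 0.952, 0.998 and 0.963 by limma).

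**Figure D4:**
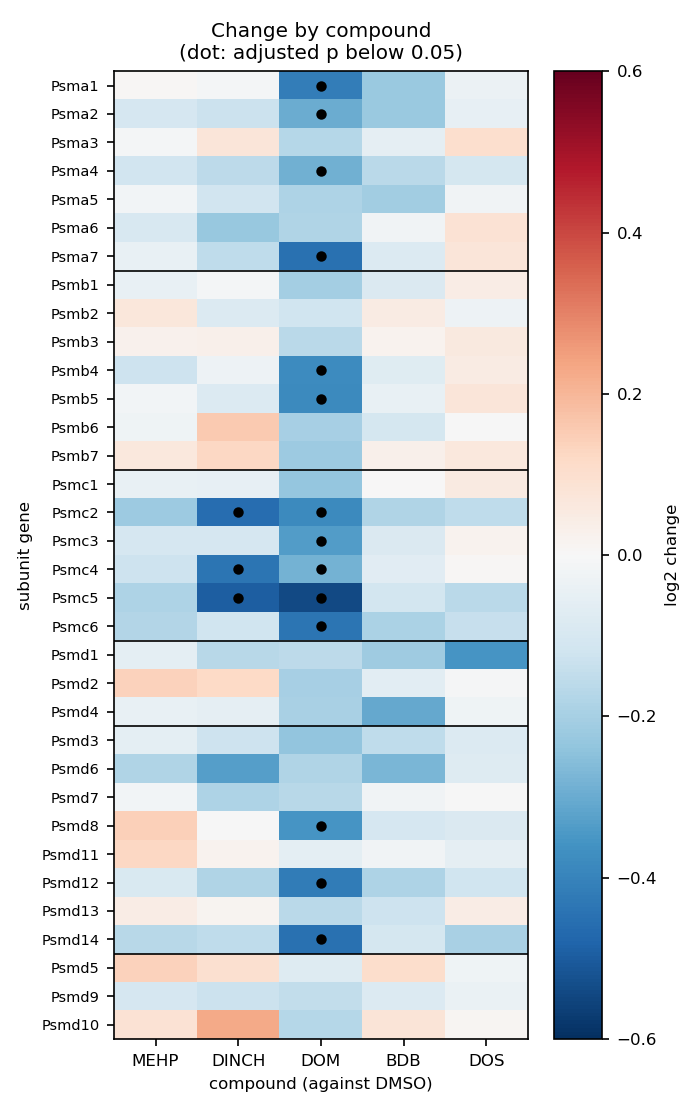
Log2 change of each of the 34 subunits (rows, in order of subcomplex) for the 5 compounds against DMSO (columns). Dots mark an adjusted p below 0.05, of which there are 14 in DOM, 3 in DINCH and none in MEHP, BDB or DOS.

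Promoter sequences were compared because NFE2L1 is known to act on subunit genes through the antioxidant response element. RefSeq promoters of the GRCm38.p6 build, from 250 bases before to 50 bases after the gene start, were held for 28 of the 34 subunits. The core of the element was searched as TGACNNNGC on both strands, without excluding overlaps with other motifs. It was found in 5 of these 28 promoters (17.9%) and in 14% of the promoters of 27025 genes. The sequences are shown as 60 bases on the strand of the gene, with the match in capitals.

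Psmb5 (chr14:54618008-54618067, minus strand): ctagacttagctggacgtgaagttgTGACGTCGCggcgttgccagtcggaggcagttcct
Psmb6 (chr11:70525297-70525356, plus strand): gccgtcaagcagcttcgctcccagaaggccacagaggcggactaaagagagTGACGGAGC
Psmc6 (chr14:45329574-45329633, plus strand): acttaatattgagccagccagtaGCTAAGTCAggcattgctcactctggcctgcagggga
Psmd12 (chr11:107479278-107479337, plus strand): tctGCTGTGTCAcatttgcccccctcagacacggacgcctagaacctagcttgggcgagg
Psmd9 (chr5:123228130-123228189, plus strand): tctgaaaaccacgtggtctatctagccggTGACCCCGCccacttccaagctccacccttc

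The match begins at position -47 of Psmb5, -9 of Psmb6 and -31 of Psmd9, where -1 is the base just before the gene start. In Psmc6 and Psmd12 it lies on the opposite strand, from -227 and -247. Of these 5 genes, Psmb5, Psmc6 and Psmd12 were among the 14 of all 34 subunits (41.2%) that passed the test in DOM. Psmb6 and Psmd9 were not. The 34 include 6 subunits without a promoter sequence, which could show no match. Whether a match went with passing was not tested. Other motifs searched on both strands were CCAAT, found in 39.3% of the 28 subunit promoters and 41.1% of all, GGGCGG (the SP1 box), in 64.3% and 38.2%, and CCGGAAG (the ETS core), in 35.7% and 9.93%. These are matches of letters and no binding was measured.

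The 57 other genes of the ubiquitin-proteasome system that were listed comprised inducible subunits, activators, assembly chaperones, 19S-bound factors, shuttles, regulators of subunit transcription, ubiquitin genes with their activating enzymes and cofactors of VCP. Of these, 52 were tested in DOM against DMSO, and 14 were lower and 4 higher at any fold, where 19.8% of all genes were lower and 18.9% higher. Past 1.5-fold, 3 of the 52 were lower and 2 higher, where 20.5% of all genes passed in either direction. Ngly1, described below, is counted among the 4 and the 2 higher genes. Its probe passed the detection filter only through the DOM group, where it was high, so its part in these counts gives no support. Psmb11 and Psma8, the thymus and testis forms of core subunits, were not well above background on any array.

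Past 1.5-fold, 1 of 51 tested genes was lower and 1 higher in DINCH against DMSO, where 8.26% of all genes passed. In DOM against DOS 5 of 52 were lower past 1.5-fold, where 15.2% of all genes passed in either direction.

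Uchl5, a deubiquitylase that docks on the 19S cap, had the largest change of a listed gene in DOM. It read 4.17, 3.54, 3.64 and 3.58 in DMSO and 2.70, 2.51, 2.60 and 2.47 in DOM. Its DOM arrays were below all 19 other arrays. The level was 0.447 times that of DMSO (log2 change -1.16, SE 0.15, adjusted p = 0.00075 by limma), and the direct comparisons gave -0.85 against DOS, -1.10 against MEHP, -1.16 against DINCH and -0.86 against BDB, all of which passed the 1.5-fold rule. Without a filter on dim probes, the call of Uchl5 against DOS was lost (adjusted p = 0.0641 by limma). Its partner on the cap, the ubiquitin receptor Adrm1, had a change of -0.27 in DOM that did not pass (adjusted p = 0.0571 by limma). The change of Adrm1 in DINCH, -0.44, did pass (adjusted p = 0.0124 by limma). Adrm1 was below all DMSO arrays on every array of every compound. Its group means were 4.68 in DMSO, 4.46 in MEHP, 4.24 in DINCH, 4.41 in DOM, 4.38 in BDB and 4.43 in DOS.

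Nfe2l1 itself was higher in DOM. It read 0.88, 0.81, 0.92 and 0.99 in DMSO and 1.31, 1.51, 1.25 and 1.41 in DOM. The DOM arrays lay above all other arrays, with a log2 change of 0.47 against DMSO (SE 0.10, adjusted p = 0.00588 by limma) and of 0.45 against DOS (adjusted p = 0.0304 by limma). The call against DOS was lost with the replicate number as a block (0.40, adjusted p = 0.0993), with detection on 1 array (adjusted p = 0.0585) and without a filter on dim probes (adjusted p = 0.232 by limma). The call of Nfe2l1 against DMSO was held under 10 of the 11 other settings and lost without a filter on dim probes (adjusted p = 0.0615 by limma). Ngly1, the glycanase that takes part in NFE2L1 activation, had a log2 change of 0.72 (adjusted p = 0.0216 by limma). Its probe was well above background on 2 of the 4 DMSO arrays and passed the filter only through the DOM group, so that this p gives no support, and the change was 0.10 with normexp background correction (adjusted p = 0.564 by limma). Nfe2l2, the related factor of the oxidative stress response, was lower in DOM (-0.35, adjusted p = 0.0214) and in DINCH (-0.54, adjusted p = 0.0202 by limma). These calls were held with 7 and 6 of the 8 arrays left out, respectively, and were lost without a filter on dim probes (adjusted p = 0.152 in both by limma). The DINCH call of Nfe2l2 was also lost with detection on 1 array (adjusted p = 0.0510 by limma). In DOM against DOS the change of Nfe2l2 was -0.22 and did not pass (adjusted p = 0.146 by limma). It passed there under 0 of the 11 other settings. Nfe2l2 was also below DMSO in MEHP (-0.21), BDB (-0.23) and DOS (-0.13), without passing. Of the remaining regulators, Stat3 was higher (0.47) and Nfyb, a subunit of the CCAAT-binding factor NF-Y, was lower in DOM (-0.53).

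Among the ubiquitin genes and their activating enzymes, Ubb, a polyubiquitin gene, had a change of 0.04 in DOM (adjusted p = 0.772 by limma). Uba1, an E1 enzyme, and Rps27a, a ubiquitin fusion gene, met the 1.5-fold rule in DOM only through a dimmer probe, and their brightest probes gave -0.31 and -0.15. Ubiquitin genes share repeats, and the specificity of their probes was not tested.

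The inducible beta subunits, which replace the catalytic ones in the immunoproteasome, include Psmb8, Psmb9 and Psmb10. Psmb10 was lower in DOM (log2 change -0.48, adjusted p = 0.00977 by limma), from 5.42 to 5.79 in DMSO to between 4.96 and 5.16. The call of Psmb10 was lost without a filter on dim probes (adjusted p = 0.0787 by limma). Psmb8 read -0.67, -0.01, -0.15 and -0.11 in DMSO and 0.51, 0.33, 0.51 and 0.58 in DINCH. The DINCH arrays were above all DMSO arrays, with a change of 0.71 (SE 0.15, adjusted p = 0.0201 by limma). This call was held with 5 of the 8 arrays left out, and was lost with detection on 1 array (adjusted p = 0.0548) and without a filter on dim probes (adjusted p = 0.136 by limma). Psmb8 was lower in DOM than in DOS (-0.82, adjusted p = 0.00412) and DINCH (-1.08, adjusted p = 0.000101 by limma), past 1.5-fold in both, while against DMSO its change of -0.36 did not pass (adjusted p = 0.0899 by limma). The call of Psmb8 against DOS was lost without a filter on dim probes (adjusted p = 0.0632 by limma). Psmb8 read 0.06, 0.43 and 0.16 in DOS, above all DMSO arrays, so its difference between DOM and DOS also holds a higher level in DOS. All 3 inducible subunits tested were above DMSO in DOS, with a median change of 0.38, and none passed. Psmb9 had a change of 0.67 in DINCH that did not pass (adjusted p = 0.101 by limma).

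Among the remaining groups, Psme3, an activator of the nuclear 20S core, was lower in DOM (-0.49, adjusted p = 0.00792 by limma). This call was lost without a filter on dim probes (adjusted p = 0.0701 by limma). In DOM against DOS the change of Psme3 lay between -0.43 and -0.25 over the settings. It passed there under 3 of the 11 other settings. Psme1 and Psme2, the subunits of the interferon-inducible activator, had changes of -0.15 and -0.23 in DOM against DMSO and did not pass. The list of assembly chaperones, which also held Ecpas, a protein that binds the 26S particle, had 6 tested genes. All 6 had a change below 0 in DOM, against 52.8% of all genes, and Psmg3 (-0.30) and Psmg4 (-0.44), chaperones of the core, passed. Of 6 shuttles and of 7 cofactors of VCP, 0 and 2 passed, both lower, against 19.8% of all genes lower. In MEHP 1 of 51 listed genes passed at any fold and in DINCH 5 of 51, against 3.01 and 14.9% of all genes, and in BDB and DOS none, against 0%.

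**Figure D5:**
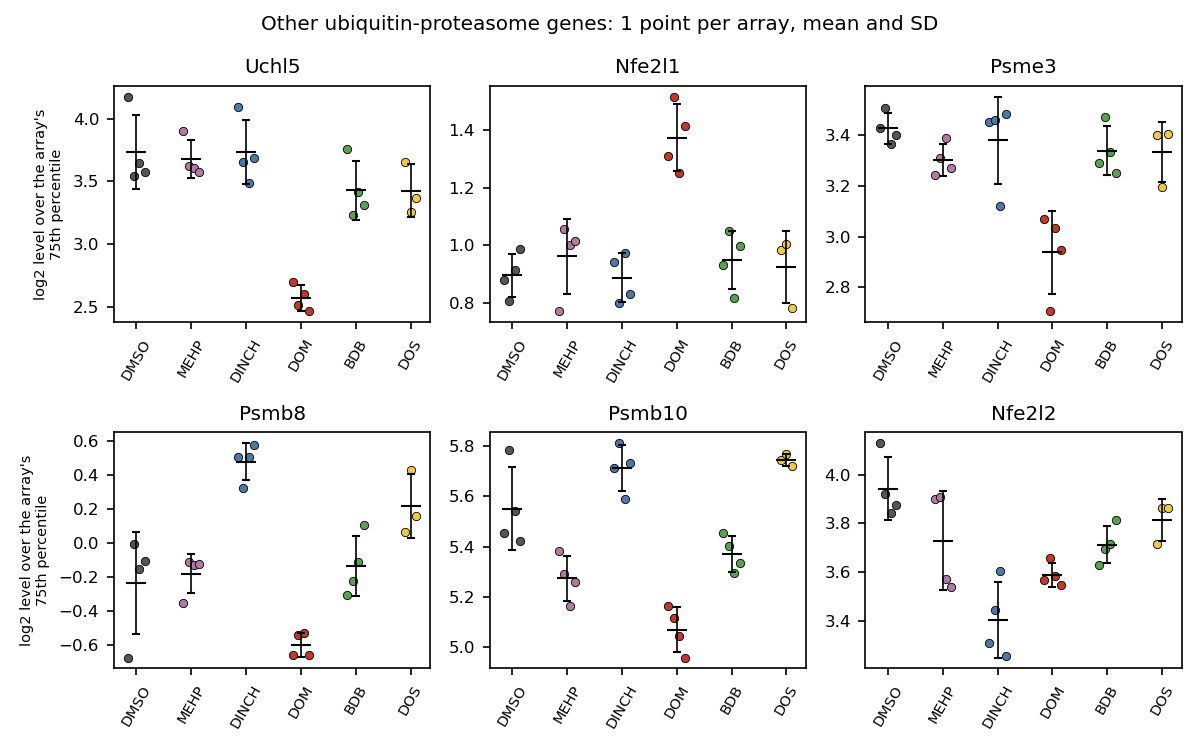
Log2 level over the array's 75th percentile of 6 other genes of the ubiquitin-proteasome system, 1 point per array, with group means and SD, by treatment. By group mean, Uchl5, Psme3 and Psmb10 are lowest and Nfe2l1 highest in DOM, whereas Psmb8 is highest and Nfe2l2 lowest in DINCH.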

How the data were processed

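TM4 RNA was labelled with Cy3 and hybridized to Agilent one-colour arrays. Per the file headers, the authors extracted intensity with Feature Extraction 11.5.1.1, which gave background-subtracted processed signals. The deposited log2 table of the series held the authors' values after a 75th percentile shift, with each probe centred near its median over the arrays, and was used only as an alternative. Here, log2 intensity (floored at 1) minus each array's 75th percentile was averaged over the spots of a probe, without control spots and outlier flags. No spot was saturated. The number of arrays limits precision.

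Each compound was compared with DMSO, and 6 pairs of compounds with each other, by limma 3.58.1 (R 4.3.3) across all probes kept by a detection filter. A probe was kept if, in 1 of the groups compared, each array showed it well above background and no lower than percentile 20 of that array. Benjamini-Hochberg adjustment covered every probe kept. Calling a gene took 1 probe with adjusted p below 0.05 and more than 1.5-fold change, and a second rule dropped the fold. Named subunits were those called or, if fewer than 3 were, the 3 with the smallest adjusted p, and always Psmb5, Psmb6, Psmb7 and Psmd14. Of the other listed genes, those called were to be named, at most 6 per comparison, and the further ones were chosen after their values were seen.

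The subunits and the other gene lists were chosen with earlier results of these data known. Probes were named through RefSeq transcript accessions, which covered 26582 of 55681. Same-numbered replicates were treated as unpaired in the fits. Their deviations from the group means correlated above 0.1 in every pair for DINCH, BDB and DOS against DMSO, DOM against DOS and MEHP, and DINCH against BDB, but not for the other 5 comparisons. Scripts were tested on simulated data. Promoters came from RefSeq tables. One listed gene is not reported here by name.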

Additional observations from a re-analysis of the deposited data

Results flagged for a closer look

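Within groups of 4 arrays, 8 of 170 combinations of subunit and group had 1 array set apart from the other 3, where chance would give about 1 in 20. The distance of the array to its nearest neighbour, as a share of the range of the group, was 0.894 for Psma2, 0.919 for Psmb6 and 0.903 for Psmd13 in BDB, each time with replicate 1 highest. It was 0.831 for Psmc1 in DINCH and 0.94 for Psma2 in MEHP, again with replicate 1 highest. In DMSO it was 0.925 for Psmc3, where replicate 3 was lowest, and 0.878 for Psmd3, where replicate 4 was highest. In DOM it was 0.875 for Psmb7, where replicate 3 read 4.14 and the next array 4.43.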

How the results depend on the processing

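The subunits' changes in DOM are smaller than 1.5-fold, so the calls rest on the spread of 4 arrays and on how many probes are tested. With quantile normalization the count of subunits passing at any fold was 5 in DOM against DMSO, 0 against DOS, 7 against MEHP and 2 against DINCH, and the median changes were -0.0925, -0.0854, -0.101 and -0.0148, and -0.0641 against BDB. Without a filter on dim probes 1, 0, 1, 0 and 1 subunits passed in DOM against DMSO, DOS, MEHP, DINCH and BDB, 0 in DINCH against DMSO and 0 in DINCH against BDB. With detection on 1 array 2 passed in DOM against DOS, 1 in DOM against DINCH and 1 in DINCH against BDB. With all 6 groups in 1 fit 13, 12 and 11 passed in DOM against DOS, DINCH and BDB, with a variance trend 10, 10 and 9 and 1 in MEHP against DMSO, and with slide as a block 9 against DINCH and 11 against BDB. DOM against DINCH also gave 2 with normexp background correction and 8 with the brightest probe only. The causes were not tested.

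With the replicate number as a block, 2 subunits passed in DOM against DOS, where the numbers paired the arrays, and 3 in DOM against DINCH, where they did not. In DOM against DMSO 14 passed with the block. The block changed the counts of no other comparison by over 1.5 times.

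When 1 array was left out, the count of passing subunits ranged from 9 to 12 in DOM against DMSO, with 9 without DMSO replicate 1, DOM replicate 3 or DOM replicate 4, from 1 to 4 in DOM against DOS, 5 to 11 against MEHP, 0 to 7 against DINCH and 3 to 6 against BDB. It ranged from 1 (without DMSO replicate 4) to 4 in DINCH against DMSO, 0 to 2 in DINCH against BDB and 0 to 1 in MEHP against BDB. The count past 1.5-fold in DOM against DMSO ranged from 0 to 1.

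Changes near 0 turned sign. Psmb5 was 0.0156 (quantile) and 0.0263 (normexp) in MEHP and -0.0125 (normexp) in DOS. Psmb6 was 0.0521 (quantile) in DOM, and 0.0397 (slide block), 0.0588 (replicate block) and 0.0017 (the authors' values) in DOS. Psmb7 was -0.0037 (normexp) in BDB and -0.0069 (slide block) in DOS. With 1 array left out, Psmb5 ranged from -0.0812 to 0.0660 in MEHP, -0.146 to 0.0015 in DINCH and -0.112 to 0.0351 in BDB. Psmb6 ranged from -0.0645 to 0.0343 in MEHP and -0.0402 to 0.0588 in DOS, and Psmb7 from -0.0396 to 0.0878 in BDB and -0.0560 to 0.142 in DOS. The comparison of the brightest genes under quantile normalization was added after seeing the data.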
